A study of Homo sapiens with 6 samples.

Results

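The neutrophil genes described here are 9 mouse genes, given as Ensembl IDs with symbols and taken from the 77134 rows of the deposited count table: S100a8, S100a9, Csf3r, Cxcr2, Ly6g, Mmp9, Lcn2, Ngp and Retnlg. All 9 IDs were present as rows. The symbols are those given with the IDs and could not be checked against an annotation, that of Retnlg among them. They were read in 3 HIF1A-AS3 overexpression tumours and 3 vector control tumours, each sequenced as 1 library. Both groups were subcutaneous grafts of A549, a human lung adenocarcinoma line, in BALB/c nude mice. The overexpression cells carried the lentiviral construct pLV-CMV-HIF1A-AS3-EGFP-Neo and the control cells pLV-CMV-EGFP-Neo, so both carried EGFP and a neomycin resistance gene. HIF1A-AS3 is transcribed antisense at the human gene for the hypoxia-inducible factor subunit HIF-1α. Nude mice lack a thymus and mature T cells and keep their neutrophils and macrophages. The age of the mice was not given, and the labels do not tell whether each tumour had a mouse of its own, so a p-value covers the spread among 3 tumours a group, part of which may be technical.

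Neutrophils are short-lived white blood cells that leave the bone marrow under the cytokine G-CSF and enter tissues along gradients of CXC chemokines. They carry antimicrobial proteins, metal-binding proteins and proteases in granules and in the cytosol. In tumours they are known both for attacking cancer cells and for aiding vessel growth and matrix breakdown. Several of the 9 genes are also expressed outside neutrophils: S100a8 and S100a9 in monocytes and stressed keratinocytes, Csf3r in monocytes, Mmp9 in macrophages and Lcn2 in epithelial cells.

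Of the 9 genes, 5 were abundant enough to test between the groups, and 0 of these passed an adjusted p of 0.05 in edgeR, where 2 of 12637 genes, or 0.0158%, passed. Mmp9, which encodes a matrix protease, had the lowest p of the 5 and a negative log2 fold change, while S100a8 and S100a9, the calprotectin genes, had positive ones. Counted per S100a9 within the same tumour, Mmp9 was below every control in all 3 overexpression tumours; this is 1 of 10 ratios taken after the values had been seen, with an exact permutation p of 0.33 after adjustment over the 10, and the groups did not overlap in 13.1% of all gene pairs. Ly6g, the classical neutrophil antigen, had no count in any tumour.

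The libraries held 4272525 to 4769157 estimated counts in the overexpression group and 4167784 to 4262778 in the control group, all on mouse genes. CPM below are counts scaled to 1000000 per library, by the total over the genes tested and a TMM factor that evens out differences in library composition. That factor was 0.742 in overexpression replicate 1 and 1.02 to 1.10 in the other 5 libraries, and 17406 genes reached 1 count in that library, against 18796 to 19063 in the others. The sources used here do not give how reads of human RNA were kept off mouse genes. Markers of other cell types were not analysed here, because the sources pair no mouse symbols with the table's IDs beyond the members, and their part in the results was not tested.

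Ly6g and Ngp were at or near 0 in every tumour. Ly6g (ENSMUSG00000022582.5), the surface antigen by which mouse neutrophils are usually gated, had 0 counts in all 3 overexpression and all 3 control libraries. At this depth a count of 0 allows up to 3 counts, or 0.632 to 0.852 CPM per library (one-sided 95% limit, counting error only; the two-sided intervals in the plot of low counts reach 3.69). Ngp (ENSMUSG00000032484.9), which encodes neutrophilic granule protein of the secondary granules, had 1, 1 and 2 counts in overexpression replicates 1, 2 and 3, while every control library was at 0. No single library exceeded the 3 counts that a 0 in a library allows, so no fold is given. The groups did not overlap, at an exact permutation p of 0.1, the least that 3 tumours against 3 allow. This rests on 4 counts in all, too few to tell the groups apart at this depth. Among the genes tested, which leave out Ngp, the groups did not overlap in 13.2%. The row ENSMUSG00000052435.8, given as Retnlg, had a single count, in overexpression replicate 2. The pairing of that ID with its symbol could not be checked against an annotation, and no role is given to it.

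Lcn2 (ENSMUSG00000026822.15) encodes lipocalin-2, a siderophore-binding protein of neutrophil granules that epithelial cells also secrete. It had 7, 2 and 3 counts in overexpression replicates 1, 2 and 3, against 3, 2 and 0 counts in controls 1, 2 and 3. Only overexpression replicate 1 exceeded 3 counts, and the groups overlapped. The depth-adjusted ratio of the summed counts, 12 in overexpression and 5 in control tumours, was 2.61, with an exact 95% interval of 0.855 to 9.44 that covers counting error only. Single libraries moved it: the ratio was 1.51 without overexpression replicate 1, 4.32 without control replicate 1 and 1.72 without control replicate 3. Together these 4 genes summed to 8, 4 and 5 counts in the overexpression libraries and 3, 2 and 0 in the control libraries. None of the 4 passed the filter on low counts, so they were not tested. Transcripts of Ly6g were thus not detectable at this depth, and the label of the list rests on the other 5 genes, several of which other host cells also express.

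**Figure D1:**
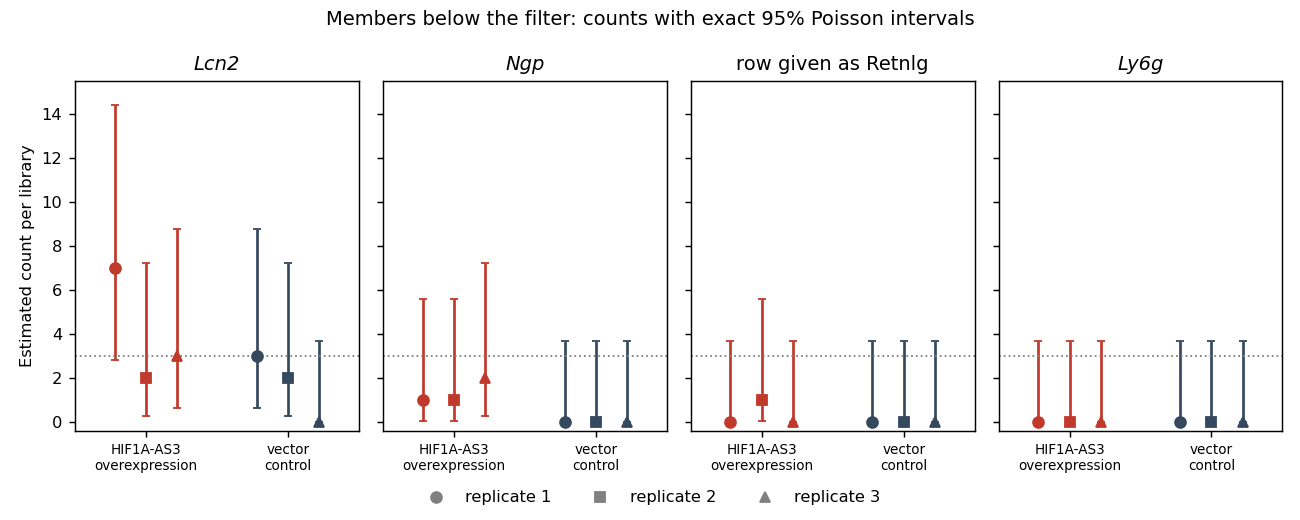
Estimated counts per library (vertical axis) of the 4 members that failed the filter on low counts, with exact 95% Poisson intervals, for 3 overexpression tumours (left in each panel) and 3 control tumours (right). The dotted line marks 3 counts; 1 point lies above it, the 7 counts of Lcn2 in overexpression replicate 1.

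S100a8 (ENSMUSG00000056054.10) and S100a9 (ENSMUSG00000056071.13) encode the small calcium- and zinc-binding proteins that pair as calprotectin, the most abundant cytosolic protein of neutrophils. S100a8 measured 25.3, 6.74 and 8.51 CPM in overexpression replicates 1, 2 and 3, against 7.78, 4.75 and 8.59 CPM in controls 1, 2 and 3. Overexpression replicate 1 stood far above every other tumour, while replicates 2 and 3 lay inside the control range. The means were 13.5 ± 10.2 CPM in overexpression and 7.04 ± 2.03 CPM in control tumours (SD, n = 3 each). The log2 fold change was 0.92 ± 0.52 (SE) in edgeR's quasi-likelihood test, and with a p of 0.70 after Benjamini-Hochberg adjustment over all genes tested the gene did not pass the threshold of 0.05. Without overexpression replicate 1 the log2 fold change was 0.08, so the size of the difference rests on that tumour. Scaled by library total alone, S100a8 still stood at 18.6 CPM there, against 5.04 to 9.29 CPM in the other 5 libraries.

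S100a9, tested in the same way, measured 40.6, 18.8 and 24.8 CPM in overexpression replicates 1, 2 and 3, against 17.1, 8.14 and 19.98 CPM in controls 1, 2 and 3. Overexpression replicate 1 was again the highest tumour and control replicate 2 the lowest, and the groups overlapped through overexpression replicate 2 and control replicate 3. The means were 28.1 ± 11.3 CPM in overexpression and 15.1 ± 6.17 CPM in control tumours (SD, n = 3 each) and the log2 fold change was 0.89 ± 0.40 (SE). The 95% interval of the fold, not adjusted for the number of genes, was 0.980 to 3.49, and the adjusted p was 0.70 in edgeR. Without overexpression replicate 1 the log2 fold change was 0.49, and without control replicate 2 it was 0.60. In bulk tumour RNA, a different number of cells of a type and a different amount of RNA per cell cannot be told apart, for this gene and for those below.

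The genes of the 2 receptors gave no detectable difference. Csf3r (ENSMUSG00000028859.15) encodes the receptor for G-CSF, which drives neutrophil production and release. It measured 20.4, 19.4 and 26.5 CPM in overexpression replicates 1, 2 and 3, against 22.5, 30.1 and 22.3 CPM in controls 1, 2 and 3. The groups overlapped, and control replicate 2, the lowest tumour for both calprotectin genes, was the highest for Csf3r. The log2 fold change was -0.18 ± 0.22 (SE; adjusted p = 0.84 in edgeR). Its 95% interval ran from 0.625 to 1.26-fold, the narrowest of the 5 genes tested.

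Cxcr2 (ENSMUSG00000026180.10) encodes the receptor for the neutrophil-attracting CXC chemokines. It measured 3.41, 3.16 and 5.06 CPM in overexpression replicates 1, 2 and 3, against 3.46, 3.17 and 6.02 CPM in controls 1, 2 and 3. The groups overlapped almost fully. Each library held only 12 to 28.0 estimated counts of it, and among overexpression tumours its variance was 1.20 times that of counting alone, against 2.67 times among controls. The log2 fold change was -0.12 ± 0.40 (SE; adjusted p = 0.95 in edgeR). The interval, 0.485 to 1.75-fold, leaves room for changes of either sign.

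Mmp9 (ENSMUSG00000017737.3) encodes gelatinase B, a protease of neutrophil tertiary granules that cuts denatured collagen and type IV collagen. It measured 34.7, 20.9 and 15.9 CPM in overexpression replicates 1, 2 and 3, against 49.7, 27.1 and 69.8 CPM in controls 1, 2 and 3. On this TMM-scaled level, controls 1 and 3 were above every overexpression tumour, and control replicate 2 lay below overexpression replicate 1. The means were 23.8 ± 9.73 CPM in overexpression and 48.9 ± 21.4 CPM in control tumours (SD, n = 3 each). The log2 fold change was -1.05 ± 0.40 (SE), which is 2.07-fold less, and the 95% interval of the fold was 0.255 to 0.921. In this fit it was the only member with an unadjusted p below 0.05, at 0.032 (S100a9 was at 0.056, and at 0.018 with a replicate block and 0.027 with no filter on low counts). At an adjusted p of 0.70 it did not pass the threshold. Scaled by library total alone, Mmp9 stood at 25.6, 21.3 and 16.2 CPM in overexpression replicates 1, 2 and 3. Controls 1, 2 and 3 then stood at 54.2, 28.8 and 76.2 CPM, so the groups did not overlap on that scale. There edgeR gave an unadjusted p of 0.0054 and an adjusted p of 0.73. How many of all genes separated on that scale was not counted. All 6 estimates of Mmp9 were non-whole by more than 0.001 counts, as were 4 of 6 for S100a8, 4 for Csf3r, 1 for Cxcr2 and 0 for S100a9. A non-whole estimate arises where a quantifier divides reads between genes, and its part in these values was not tested.

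**Figure D2:**
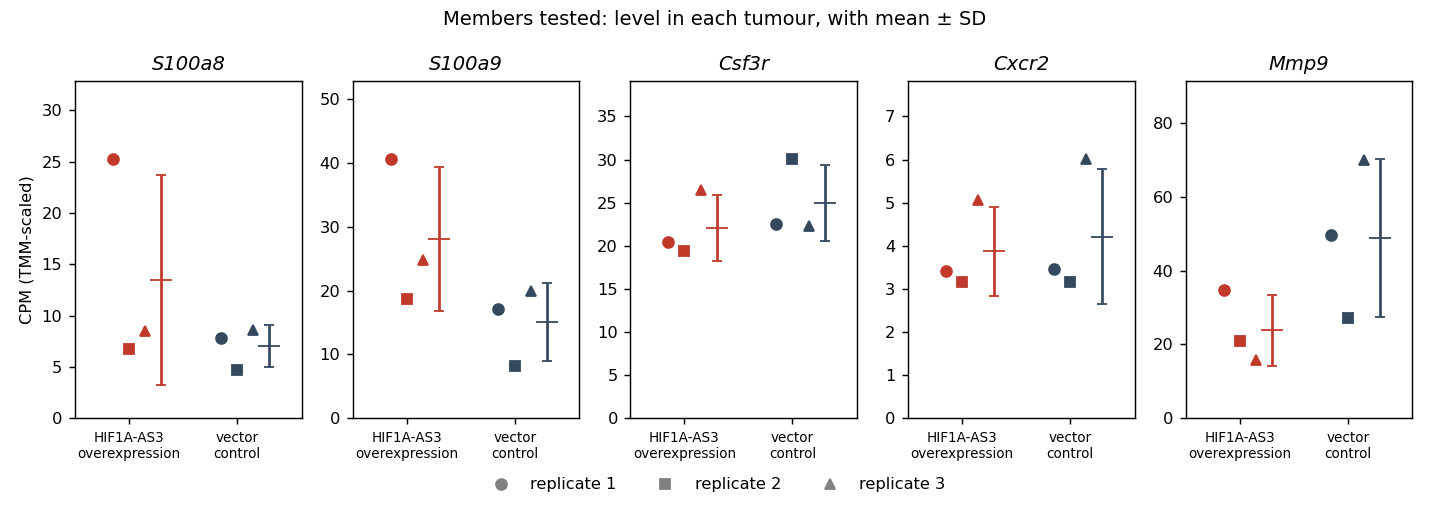
CPM (vertical axis, from 0, a scale per gene) of the 5 members tested in each overexpression tumour (left) and control tumour (right); marker shape gives the replicate number and bars show mean ± SD, n = 3. Overexpression replicate 1 is the highest point for S100a8 and S100a9, and controls 1 and 3 are the highest for Mmp9.

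The count of members called, 0 in edgeR, was also 0 with DESeq2 and with limma-voom. At an unadjusted p below 0.05, 1 of the 5 was found in edgeR, against 6.29% of all genes, too few members to read against that share. On the TMM-scaled CPM, in 0 of the 5 did the groups not overlap, against 13.2% of all genes. The log2 fold change was positive for the 2 calprotectin genes and negative for the 2 receptor genes and Mmp9. The median over the 5 was -0.12, beside 0.01 over all genes tested, so the genes showed no common direction. Passing the filter depends on level, so these figures describe 5 genes and not the list of 9.

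**Figure D3:**
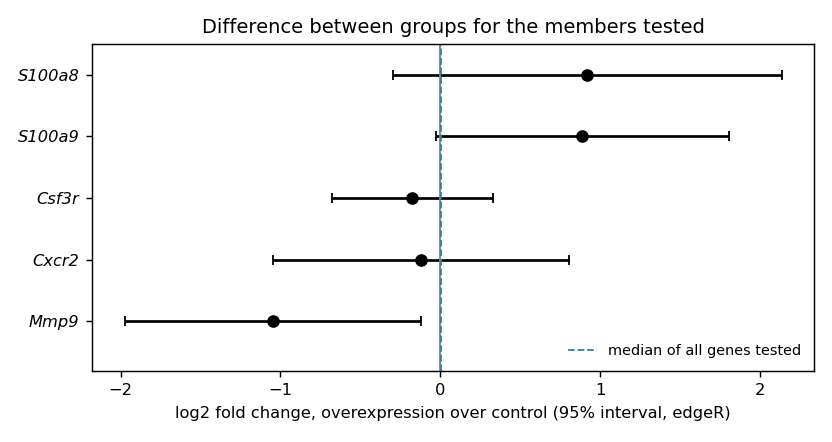
Log2 fold change of overexpression over control tumours (horizontal axis) with its 95% interval from edgeR, not adjusted for the number of genes, for the 5 members tested. The interval of Mmp9, at -1.05, lies below 0 and the other 4 include 0; the dashed line is the median of all genes tested.

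**Figure D4:**
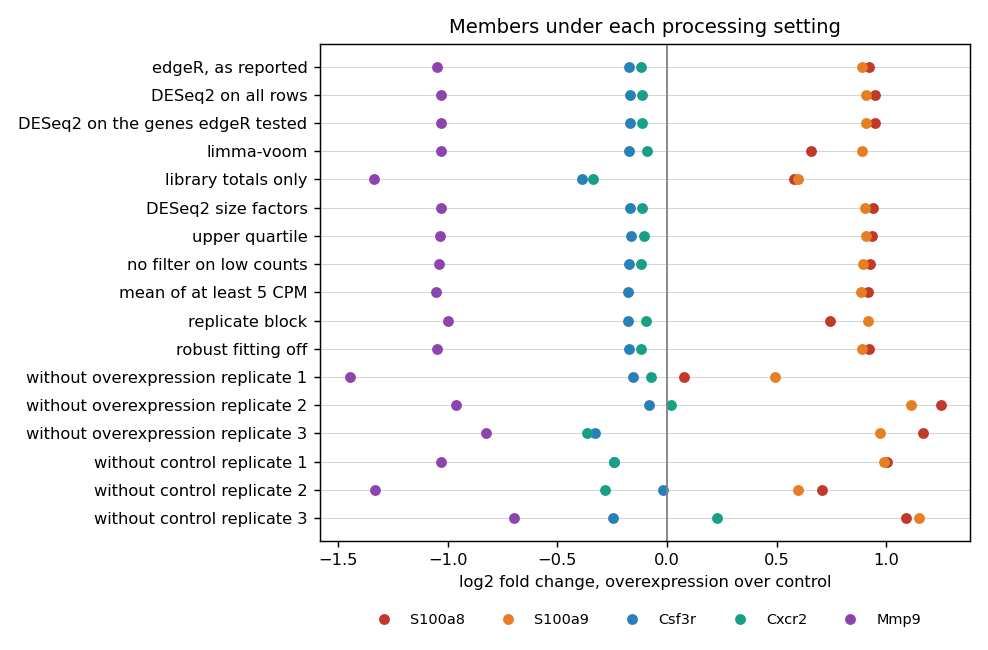
Log2 fold change of overexpression over control tumours (horizontal axis) of each tested member (colours) under the reported edgeR fit and 16 other settings (rows). S100a8 and S100a9 are above 0 and Csf3r and Mmp9 below 0 in every row; Cxcr2 changes side without overexpression replicate 2 and without control replicate 3, and has no value with the filter at a mean of 5 CPM.

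The plot of log2 fold changes by setting shows how far each gene moved with the processing. Over the 16 alternatives Mmp9 lay between -1.45 and -0.70, S100a9 between 0.49 and 1.15, and S100a8 between 0.08 and 1.25. The adjusted p ranged from 0.31 to 1.00 for Mmp9, from 0.18 to 1.00 for S100a9 and from 0.22 to 1.00 for S100a8, so none passed in any of them.

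Because library scaling cancels in a ratio of 2 genes from the same tumour, all 10 ratios among the 5 tested genes were also taken, a choice made after the values had been seen. These are ratios of counts, not of molecules, since gene length was not used. Mmp9 per S100a9 was 0.855, 1.11 and 0.643 in overexpression replicates 1, 2 and 3, against 2.91, 3.33 and 3.49 in controls 1, 2 and 3. Every overexpression tumour was below every control, and the spread within each group was small beside the gap between them. The difference of mean log2 ratios was -1.93, or 3.81-fold less, with means of -0.24 ± 0.40 in overexpression and 1.69 ± 0.14 in control tumours (SD, n = 3 each). Leaving out any 1 library gave differences of -2.13 to -1.73.

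Mmp9 per S100a8 separated the groups likewise, at 1.38, 3.13 and 1.89 in overexpression replicates 1, 2 and 3, against 6.38, 5.71 and 8.20 in controls 1, 2 and 3. Csf3r per S100a9 was 0.504, 1.03 and 1.06 in overexpression tumours and 1.32, 3.70 and 1.12 in control tumours, where the gap between the groups was narrow. The 3 ratios share genes with each other and are not independent. A two-sided exact permutation test gave each a p of 0.1, the least that 3 tumours against 3 allow, and 0.33 after Benjamini-Hochberg adjustment over the 10 ratios. Among all pairs of tested genes above 0 in every library, the groups did not overlap in 13.1% of ratios, against these 3 of 10.

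The other 7 ratios overlapped between groups. For the 2 calprotectin genes, S100a9 per S100a8 was 1.61, 2.81 and 2.93 in overexpression replicates 1, 2 and 3, against 2.19, 1.71 and 2.35 in controls 1, 2 and 3. The receptors' ratio, Csf3r per Cxcr2, was 6.01, 6.13 and 5.22 in overexpression tumours and 6.50, 9.52 and 3.72 in control tumours. Neither ratio differed beyond its spread, at exact permutation p values of 0.6 and 0.8. Mmp9 per Csf3r, at 1.70, 1.08 and 0.604 in overexpression tumours and 2.21, 0.900 and 3.12 in control tumours, also overlapped (exact permutation p = 0.3), with control replicate 2 inside the overexpression range.

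**Figure D5:**
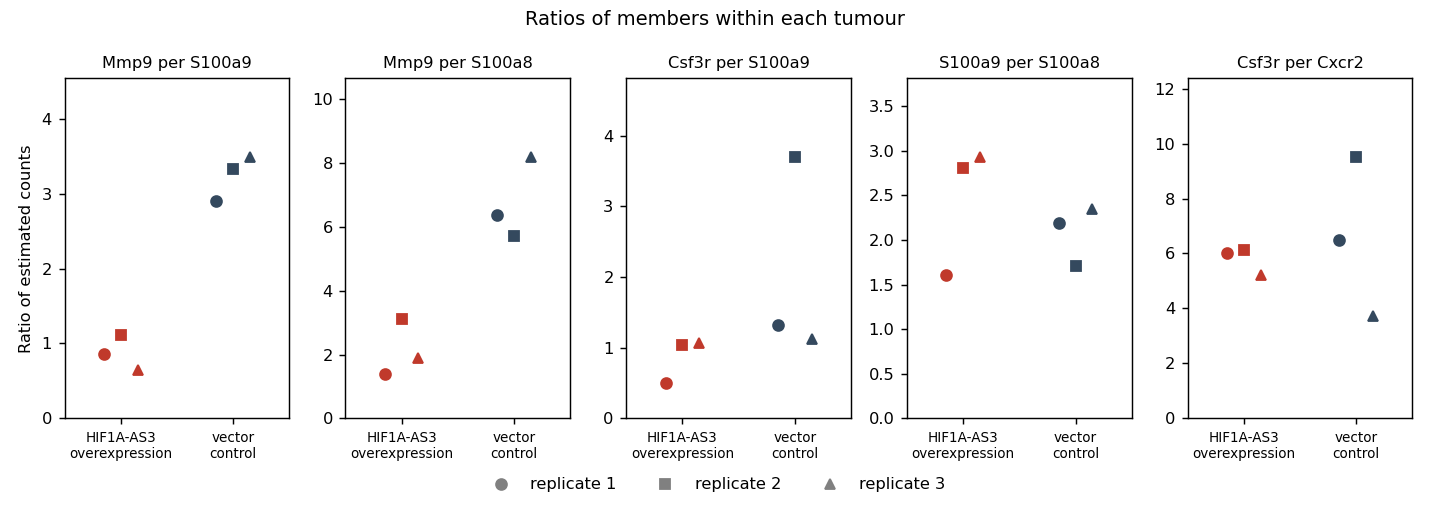
Ratio of estimated counts of 2 genes within each tumour (vertical axis, from 0) for the 3 ratios whose groups did not overlap and for the calprotectin and receptor pairs; overexpression tumours are on the left and control tumours on the right of each panel. For Mmp9 per S100a9 the overexpression tumours lie between 0.643 and 1.11 and the controls between 2.91 and 3.49.

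The tumours were not ranked alike by the 5 genes. The summed level of S100a8 and S100a9 was 65.9, 25.5 and 33.4 CPM in overexpression replicates 1, 2 and 3, against 24.9, 12.9 and 28.6 CPM in controls 1, 2 and 3. The summed level of the receptors Csf3r and Cxcr2 was 23.9, 22.5 and 31.5 CPM in overexpression tumours, against 25.9, 33.2 and 28.4 CPM in control tumours. Overexpression replicate 1, highest for calprotectin, was among the 2 lowest for the receptors, and control replicate 2, lowest for calprotectin, was the highest for them. Among overexpression tumours the variance of S100a8 was 32.0 times that of counting alone, that of S100a9 18.5 times and that of Mmp9 15.7 times; among controls the figures were 2.61, 11.3 and 41.9. For Csf3r it was 2.87 times in overexpression and 3.54 times in control tumours. Between pairs of libraries, the mean per gene was 28.7 to 81.6 times among overexpression tumours and at most 13.1 times among controls. Spread beyond counting was thus not particular to the members. The pairwise means are a different measure, so whether any member varied more than other genes was not tested.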

How the data were processed

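The authors deposited 1 table of estimated counts per gene, not normalized, with 1 column per tumour, per the file header; all 6 columns were matched by name. Its name points to salmon, while the submitters' processing notes list featureCounts 2.0.6, HISAT2 2.2.1, Trimmomatic 0.39, edgeR, DESeq2 and the build mm10 with no roles. The sources used here do not give the quantifier's version or annotation, and the libraries came from an mRNA kit, per the labels' protocols. Counts were rounded and fitted in R 4.3.3 with edgeR 4.0.16 (filterByExpr, TMM, robust quasi-likelihood test, model with group only) on all rows; Benjamini-Hochberg adjustment covered all 12637 genes tested. Standard errors are the log2 fold change over the square root of F. Alternatives used DESeq2 1.42.0, limma 3.58.1, other scalings and filters, a replicate block and leaving out each library. No library was a duplicate: controls 1 and 3, the most alike, still had 3.90 times the counting variance per gene. Overexpression replicate 1 stood furthest from its group, at 81.6 times against replicate 2 and 67.3 times against replicate 3. Overexpression replicates 2 and 3 stood at 28.7 times, and no pair of controls exceeded 13.1 times. The members and lists were chosen with earlier results of these data known. All 9 members are named by rule; other marker lists had been drawn up by symbol and, with 0 IDs matched to a symbol in the name tables, were not run, nor were genes of like pattern named.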

Additional observations from a re-analysis of the deposited data

How the results depend on the processing

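None of the 5 tested genes passed the threshold in any alternative that gave it a value, 16 for each of S100a8, S100a9, Csf3r and Mmp9 and 15 for Cxcr2. Ly6g, at 0 throughout, could be tested in none; Lcn2 and Ngp passed neither with the filter off in edgeR nor with DESeq2 on the full table. The number of tested members at an unadjusted p below 0.05, 1 in edgeR, was 2 with the replicate block, with the filter off, with DESeq2 and without overexpression replicate 2, and 0 without overexpression replicate 3 or control replicate 1. Which genes were counted also changed. They were S100a8 and S100a9 without overexpression replicate 2, and S100a9 alone without control replicate 3. Mmp9 had unadjusted p values of 0.088 and 0.13 in those edgeR fits. The number of all genes called, 2 in edgeR, became 7 by limma-voom and, by DESeq2, 29 over the full table or 28 after edgeR's filter. Within edgeR it became 4 without TMM, 14 with the filter off and 0 with a replicate block (414 genes at an unadjusted p below 0.05), and 0 to 14 across fits lacking 1 library. The labels do not say that replicate numbers pair tumours, so the numbers were not taken as pairs. Same-numbered tumours correlated at -0.34 to -0.09 in their deviations from the group means across genes. Deviations from a mean of 3 tumours are tied to one another, so these correlations could not decide the pairing. Under the block S100a9 stood at a log2 fold change of 0.91, and both S100a9 and Mmp9 at an adjusted p of 0.95 in edgeR. The median over the tested members, -0.12, was 0.35 with the filter at a mean of 5 CPM, which removes Cxcr2 by construction, and -0.33 to 0.23 with 1 library left out. Library totals alone moved the median of all genes to -0.21; on that scale Mmp9 stood at -1.34 and S100a9 at 0.60. The log2 fold change of Cxcr2 ran from -0.36 to 0.23 over the fits lacking 1 library, positive without overexpression replicate 2 (0.02) and without control replicate 3 (0.23). The log2 difference in Csf3r per Cxcr2, -0.09, ran from -0.45 to 0.23 and was positive without control replicate 2. In a fit with no filter on low counts Lcn2 had a log2 fold change of 1.39 (adjusted p = 0.73 in edgeR). Depth limits Cxcr2 most among the tested genes, at 12 to 28.0 counts per library.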
